A study of Rattus norvegicus with 24 samples.

Results

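The comparison described here is the middle dose of 17β-estradiol in female rat mammary glands, 1 µg/kg/day against 0. Its members are the 3 arrays labelled female at dose 1 and the 3 labelled female at dose 0, 6 of the 24 arrays of the series, and each was described across 31042 probe sets. The animals were Sprague-Dawley rats that carried subcutaneous osmotic pumps from weaning on postnatal day 21 until they were killed on day 33. The controls carried pumps that delivered a dose of 0, so pump implantation, age and strain were shared by both groups. Frozen pairs of abdominal glands were the source of RNA, so each array holds the epithelium together with the fat pad, blood vessels, immune cells and any neighbouring tissue. The labels do not say whether an array stands for 1 animal or whether the ovaries were in place, and the p-values measure the spread between arrays only.

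Estradiol, the main ovarian estrogen, acts in the prepubertal gland through estrogen receptor alpha (Esr1) in luminal epithelial cells and in stroma. Receptor-positive cells induce genes such as Pgr, the progesterone receptor, and Areg, amphiregulin, an EGF receptor ligand that drives neighbouring cells to divide and the ducts to elongate. The fat pad around the ducts makes lipid and holds mast cells and macrophages, which gather near growing ducts. Milk protein genes such as Wap, whey acidic protein, and Csn2, β-casein, mark secretory differentiation.

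The deposited values are log values, taken here as log2, that were centred on 0 within each sex for every probe set. A value is therefore a position relative to the other female arrays and not a level. Neither the presence of a transcript nor a sex difference in level could be read from it, and the sex label was not checked. All differences below are values at 1 minus values at 0, with the standard error (SE) from limma fitted across the 8 groups of 3 arrays.

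No probe set passed the threshold at 1 against 0. By limma with Benjamini-Hochberg adjustment, 0 of 31042 probe sets (0%) had an adjusted p under 0.05, and the smallest adjusted p was 1.00. An unadjusted p under 0.05 was reached by 847 probe sets, 2.73% of those tested, where the nominal share is 5%. Of these, 273 were higher at 1 (0.879% of those tested) and 574 were lower (1.85%). This split depended on the scaling and on single arrays. Higher values made up 32.2% of the 847, 44.1% of 1573 after quantile normalization and 41.8% of 821 after centring each array on its median. The share was 55.7% of 814 without replicate 9 of the dose group and 44.7% of 862 without control replicate 1. It lay between 28.6% and 35.8% when each of the other arrays was left out in turn. The same fit called 577 probe sets at 10 against 0 in females and 1127 at 1 against 0 in males. These counts also rested on single arrays: the 577 became 73 with the 12 female arrays alone and 158 without replicate 10, and the 1127 became 165 without male control replicate 1 and 196 without replicate 9 of the dosed males.

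Because single genes did not pass, agreement between arrays was counted next. Among 14217 genes, each represented by 1 probe set, 350 had all 3 arrays at 1 above all 3 controls (2.46%) and 889 had all 3 below (6.25%). These percentages are the background for counts of list members whose groups did not overlap with all 6 arrays. By group means, 8031 of the 14217 genes were lower at 1 and 6186 were higher, which is the background for counts of direction. Members of a list share the same 6 arrays and are not independent of one another, and no count of members was tested.

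Some arrays stood apart from the others of their group, and the part of this in the results was not tested except where a value without the array is given. Replicate 1 of the controls was high in 23 hepatocyte genes, with a mean of 2.36, and replicate 7 at dose 1 followed with 0.82, while the other 4 arrays lay between -0.35 and 0.14. The mean of 36 skeletal muscle genes ran from -2.95 to 0.21 in controls and from -1.62 to 1.99 at dose 1, where replicate 9 was the highest of the 6. Hair and stratified epithelium genes were high in control replicate 2, at a list mean of 1.10, and in replicate 7, at 1.44. Lymphocyte genes were highest in control replicate 3, with list means of 0.82 for T cells and 0.88 for B cells. Replicate 9 was also low in genes of fatty acid synthesis, and its values had an SD over all probe sets of 0.305, as did those of control replicate 1, against 0.195 to 0.229 on the other 4 arrays.

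**Figure D1:**
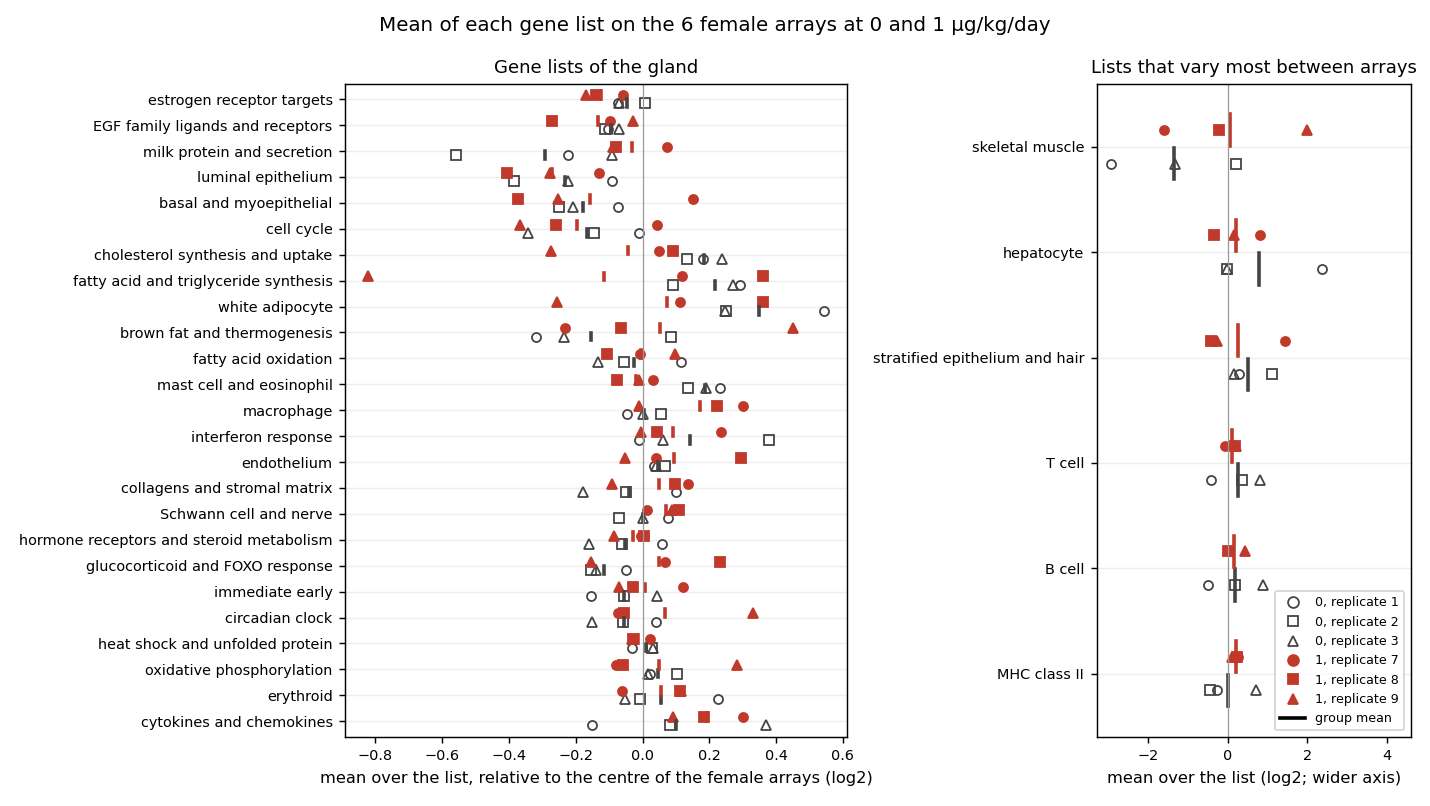
Mean of each of 31 gene lists on the 6 female arrays, in log2 units relative to the centre of the female arrays; open symbols are controls, filled symbols are dose 1, bars are group means and the right panel has a wider axis. The mast cell list separates the groups, with controls between 0.14 and 0.23 and dose 1 between -0.08 and 0.03, whereas skeletal muscle spreads from -2.95 to 1.99 within the same groups.

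With all 6 arrays, mast cell genes were the list with the largest share of members that separated by array. When arrays were left out in turn their share lay between 38.9% and 50%, against 10.4% to 13% of all genes. Other lists then had larger shares. Without control replicate 1, 68.8% of T cell genes lay below the remaining controls, against 13% of all genes. Without replicate 9, 22 of 27 oxidative phosphorylation genes (81.5%) lay below the controls, against 11.4% of all genes. Mast cells are granule-filled immune cells of connective tissue, and their proteases, histamine-making enzyme and IgE receptor are carried by few other cells. Of 18 genes measured for mast cells and eosinophils, 15 were lower at 1, the median difference was -0.20, and 7 (38.9%) had all 3 dosed arrays below all 3 controls, against 6.25% of all genes. The list mean was 0.23, 0.14 and 0.19 in controls and 0.03, -0.08 and -0.01 at dose 1. In a bulk sample, fewer mast cells and less RNA per cell cannot be told apart.

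The start regions of 15 of the 18 genes were found in the RefSeq table for rat assembly GRCr8. They are shown for 2 of the 7 genes because each carries AGATAA, a form of the sequence bound by GATA factors. Among these factors Gata2 is a mast cell regulator and itself a member of the list. Each run is the 250 bases before the annotated start, read 5′ to 3′ on the gene's strand, and capitals mark AGATAA or its reverse complement TTATCT.
Fcer1a (chr13:88224680-88224929, minus strand): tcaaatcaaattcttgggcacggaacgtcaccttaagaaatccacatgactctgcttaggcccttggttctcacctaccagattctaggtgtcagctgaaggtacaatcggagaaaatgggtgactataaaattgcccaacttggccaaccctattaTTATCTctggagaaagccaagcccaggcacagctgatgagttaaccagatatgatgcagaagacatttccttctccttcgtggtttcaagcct
Cpa3 (chr2:104673238-104673487, minus strand): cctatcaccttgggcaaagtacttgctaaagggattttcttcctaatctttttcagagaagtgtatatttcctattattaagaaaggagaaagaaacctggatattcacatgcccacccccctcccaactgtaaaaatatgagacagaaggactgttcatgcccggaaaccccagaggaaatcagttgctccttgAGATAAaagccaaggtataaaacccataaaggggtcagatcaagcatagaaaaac
Searched on both strands, AGATAA was in 3 of the 15 regions (20%), in 2 of the 7 whose arrays separated, and in 3447 of 33469 regions of all genes (10.3%). A match describes the letters only. Other forms of the GATA sequence were not searched and may lie in the regions without AGATAA.

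Hdc, histidine decarboxylase, the enzyme that makes histamine, was the most uniform member. Its values were 0.46, 0.50 and 0.52 in controls and -0.02, 0.03 and 0.02 at dose 1. The groups did not overlap, and the gap between them was many times the spread within either. The difference was -0.48 ± 0.16 (SE, n = 3 and 3; limma, unadjusted p = 0.00654, 95% interval -0.82 to -0.15), and it lay between -0.50 and -0.47 when each array was left out in turn. Fcer1a, the alpha chain of the high-affinity IgE receptor, whose upstream region is printed above, had values of 0.76, 0.45 and 0.65 in controls and -0.17, -0.32 and 0.15 at dose 1. All dosed arrays were lower, by -0.74 ± 0.26 on average (SE; limma, unadjusted p = 0.0101).

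The other separated members were granule proteases and a transcription factor. Tpsab1, a tryptase, had 0.61, 0.25 and 0.24 in controls against -0.22, -0.23 and 0.08, a difference of -0.49 ± 0.22. Tpsb2, its close paralogue, had 0.33, 0.16 and 0.08 against -0.24, 0.00 and -0.09, and cross-hybridisation between these 2 was not checked. Cpa3, mast cell carboxypeptidase, had 0.37, 0.31 and 0.39 against 0.03, 0.02 and 0.17. In each of these genes no dosed array reached the lowest control. Gata2 had 0.31, 0.44 and 0.28 against -0.02, 0.14 and 0.03 (-0.30 ± 0.13). Mcpt4, a chymase-type protease, differed by only -0.19 ± 0.08.

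Not every gene of the list followed. Cma1, mast cell chymase, was lower by -0.37 ± 0.20 but overlapped, with controls at 0.49, 0.28 and 0.06 and dosed arrays at -0.37, -0.06 and 0.17. Ms4a2, the beta chain of the same IgE receptor, differed by -0.13 ± 0.19, and Slc18a2, which loads amines into granules, by -0.20 ± 0.19. The eosinophil genes Prg2 and Epx gave -0.07 ± 0.30 and a difference near 0. Il1rl1, the receptor for interleukin 33, ranged from -1.17 to 0.57 at dose 1 alone. Cnrip1 was the 1 member with all dosed arrays above the controls, by 0.20 ± 0.12. The list median stayed between -0.25 and -0.18 under the alternatives run, was -0.18 with muscle and hepatocyte scores as covariates, and was -0.21 without the 2 arrays that carried hepatocyte transcripts. At 10 against 0 in females, a comparison that shares these controls, the list median was -0.45 and 5 of 18 members were called lower, against 1.27% of all genes, Hdc by -1.12 (limma, adjusted p = 0.00116). At 0.1 it was -0.03, and in males at 1 it was -0.09 with no member called.

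**Figure D2:**
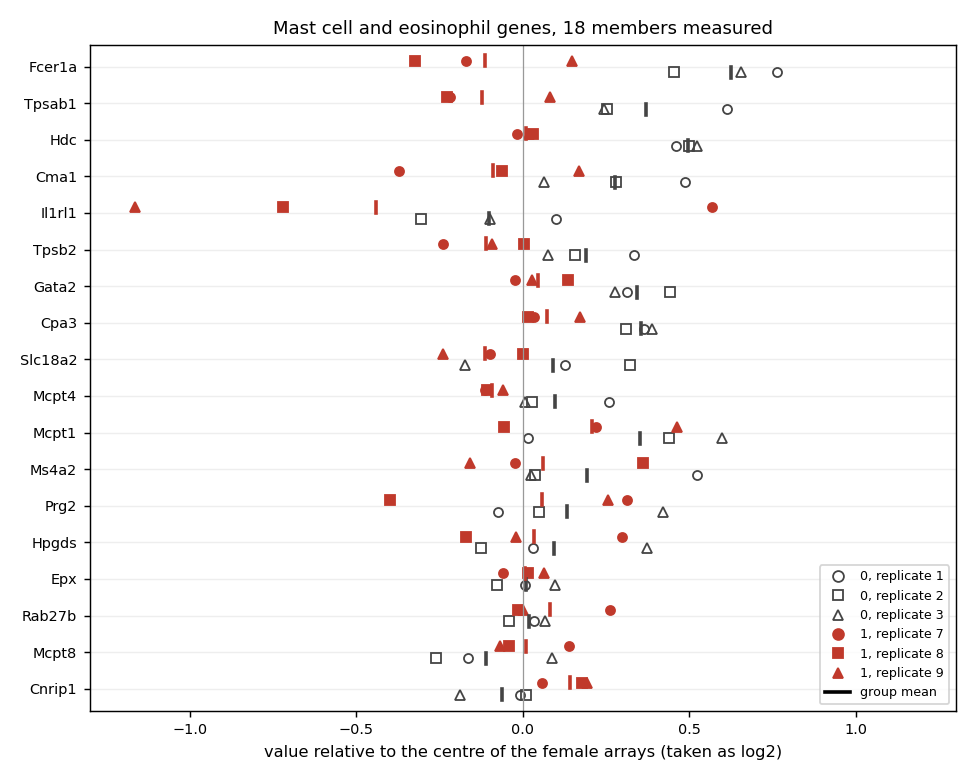
Values of 18 mast cell and eosinophil genes on the 6 female arrays, in log2 units relative to the centre of the female arrays; open symbols are controls, filled symbols are dose 1 and bars are group means. Hdc shows the tightest groups, 0.46 to 0.52 against -0.02 to 0.03, and Cnrip1 at the bottom runs the other way.

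Genes of cholesterol synthesis were lower in the same direction and by similar amounts. This pathway turns acetyl-CoA through mevalonate and squalene into cholesterol under control of SREBP2 and is active in adipocytes and milk-forming epithelium. Of 20 members measured, 20 were lower at 1, the median difference was -0.23, 6 had an unadjusted p under 0.05, against 2.15% of all genes lower at that p, and 5 (25%) had all dosed arrays below all controls, against 6.25% of all genes. The list mean was 0.18, 0.13 and 0.24 in controls and 0.05, 0.09 and -0.27 at dose 1, so replicate 9 was the lowest array. Without replicate 9 the median was -0.11. Without replicate 8 it was -0.30 and 13 members (65%) separated, against 12.6% of all genes.

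Upstream regions of 16 of the 20 genes were matched in the same RefSeq table. Those of Fdps and Hsd17b7 are shown because they are the 2 matched among the 5 genes that separated by array, and both repeat CCAAT, a box bound by NF-Y, which is known to work beside SREBP at sterol genes. Capitals mark CCAAT or its reverse complement ATTGG.
Fdps (chr2:176804817-176805066, minus strand): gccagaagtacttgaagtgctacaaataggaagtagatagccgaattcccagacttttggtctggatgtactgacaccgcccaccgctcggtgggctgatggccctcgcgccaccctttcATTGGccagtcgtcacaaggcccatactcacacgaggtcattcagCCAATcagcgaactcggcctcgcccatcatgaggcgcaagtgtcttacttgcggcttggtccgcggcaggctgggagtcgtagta
Hsd17b7 (chr13:84722755-84723004, minus strand): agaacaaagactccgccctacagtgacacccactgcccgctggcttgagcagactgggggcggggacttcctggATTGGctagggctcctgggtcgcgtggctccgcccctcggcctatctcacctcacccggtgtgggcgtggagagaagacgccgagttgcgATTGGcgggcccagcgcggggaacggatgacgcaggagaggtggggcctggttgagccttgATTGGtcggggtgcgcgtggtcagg
Searched on both strands, CCAAT was in 13 of the 16 regions (81.2%) and in 11385 of 33469 regions of all genes (34.0%). Fdps holds 2 matches and Hsd17b7 holds 3.

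Pmvk, phosphomevalonate kinase, gave the clearest separation among the chosen probe sets. Its values were 0.36, 0.25 and 0.16 in controls and -0.07, 0.00 and -0.09 at dose 1, a difference of -0.31 ± 0.09 (SE; limma, unadjusted p = 0.00251) that stayed between -0.36 and -0.26 as arrays were left out. Here replicate 9 was close to the other dosed arrays. Fdps, farnesyl diphosphate synthase, had 0.21, 0.14 and 0.28 against -0.01, 0.05 and -0.33, and Hsd17b7, which acts late in the pathway, had 0.21, 0.30 and 0.27 against 0.03, 0.18 and -0.36. In both genes the groups did not overlap but replicate 9 lay far below replicates 7 and 8, and the difference of Hsd17b7 went from -0.31 ± 0.12 to -0.16 without it. Fdft1, squalene synthase, had 0.30, 0.13 and 0.28 against 0.09, 0.03 and -0.06, a difference of -0.22 ± 0.09.

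Insig1, the sterol sensor whose transcript is itself an SREBP target, had 0.40, 0.47 and 0.52 against 0.38, 0.41 and -0.65, a difference of -0.41 ± 0.25 in which replicate 9 was far below the other 5 arrays. Nsdhl differed by -0.40 ± 0.17 with overlapping groups, and Srebf2, which encodes SREBP2, by -0.19 ± 0.12. A second probe set for Cyp51, lanosterol demethylase, was chosen after its values were seen. It had 0.41, 0.38 and 0.33 in controls and -0.01, 0.01 and -0.27 at dose 1, and its difference of -0.46 ± 0.10 had an unadjusted p of 0.000151 in limma. The probe set that represents Cyp51 in the list gave -0.24, so both were lower at 1.

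Genes of fatty acid and triglyceride synthesis, which fills the fat pad with lipid, were lowest on replicate 9. Of 22 members, 20 were lower at 1 with a median of -0.37, but the list mean at dose 1 was 0.12, 0.36 and -0.82 against 0.29, 0.09 and 0.27 in controls, and without replicate 9 the median was 0.02. Replicate 7 was below the control mean in 14 of the 22 genes and replicate 8 in 6. Without replicate 8 the median was -0.64 and 11 members (50%) separated, against 12.6% of all genes. Fasn, fatty acid synthase, had 0.23, 0.17 and 0.44 in controls and 0.16, 0.54 and -1.32 at dose 1. Elovl6, an elongase, had 0.47, 0.00 and 0.75 against 0.63, 0.59 and -1.93. Acly, ATP citrate lyase, had 0.31, 0.02 and 0.47 against 0.09, 0.54 and -1.25. In these 3 genes replicates 7 and 8 lay within or near the controls and replicate 9 alone was low.

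Of the 22 genes, 3 separated by array. Agpat2, which acylates lysophosphatidic acid on the way to triglyceride, had 0.70, 0.52 and 0.78 against 0.10, 0.50 and -0.66 (-0.68 ± 0.24). Acss2, acetyl-CoA synthetase, had 0.42, 0.44 and 0.39 against 0.01, 0.31 and -0.73, a difference of -0.55 ± 0.25, and the other was Fads1. Their share, 3 of 22, was 13.6% against 6.25% of all genes. Dgat1, which makes triglyceride, gave -0.37 ± 0.12 with groups that overlapped by a narrow margin, and Dgat2 gave -0.43 ± 0.21.

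White adipocyte genes were lower in 23 of 25 members, with a median of -0.27 that was -0.11 without replicate 9, -0.17 without control replicate 1 and -0.45 without replicate 8. Their list mean was 0.54, 0.25 and 0.25 in controls and 0.11, 0.36 and -0.25 at dose 1. By array, 3 members (12%) separated, against 6.25% of all genes. After quantile normalization 2 (8%) lay below, against 5.07% of all genes, and after centring each array on its median 2 (8%), against 5.28%. Without replicate 8 the count was 17 of 25 (68%), against 12.6% of all genes. Adrb3, the beta-3 adrenergic receptor of fat cells, had 1.07, 0.73 and 0.82 against 0.10, 0.37 and -0.07. It was lower on every dosed array, by -0.74 ± 0.20 (SE; limma, unadjusted p = 0.00188), and by -0.63 without replicate 9. Pck1, which makes glycerol backbone in fat, had 0.71, 0.34 and 0.22 against -0.33, 0.22 and -0.13, a difference of -0.50 ± 0.22. G0s2, an inhibitor of adipose triglyceride lipase, had 0.65, 0.75 and 0.76 against 0.06, 0.55 and -0.84. Plin1, the coat protein of lipid droplets, differed by -0.44 ± 0.17 with overlapping groups, and Pparg, the master regulator of fat cells, by -0.34 ± 0.18. Adipoq, which encodes adiponectin, differed by only -0.04 ± 0.13, and Lep, which encodes leptin, by 0.29 ± 0.24.

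**Figure D3:**
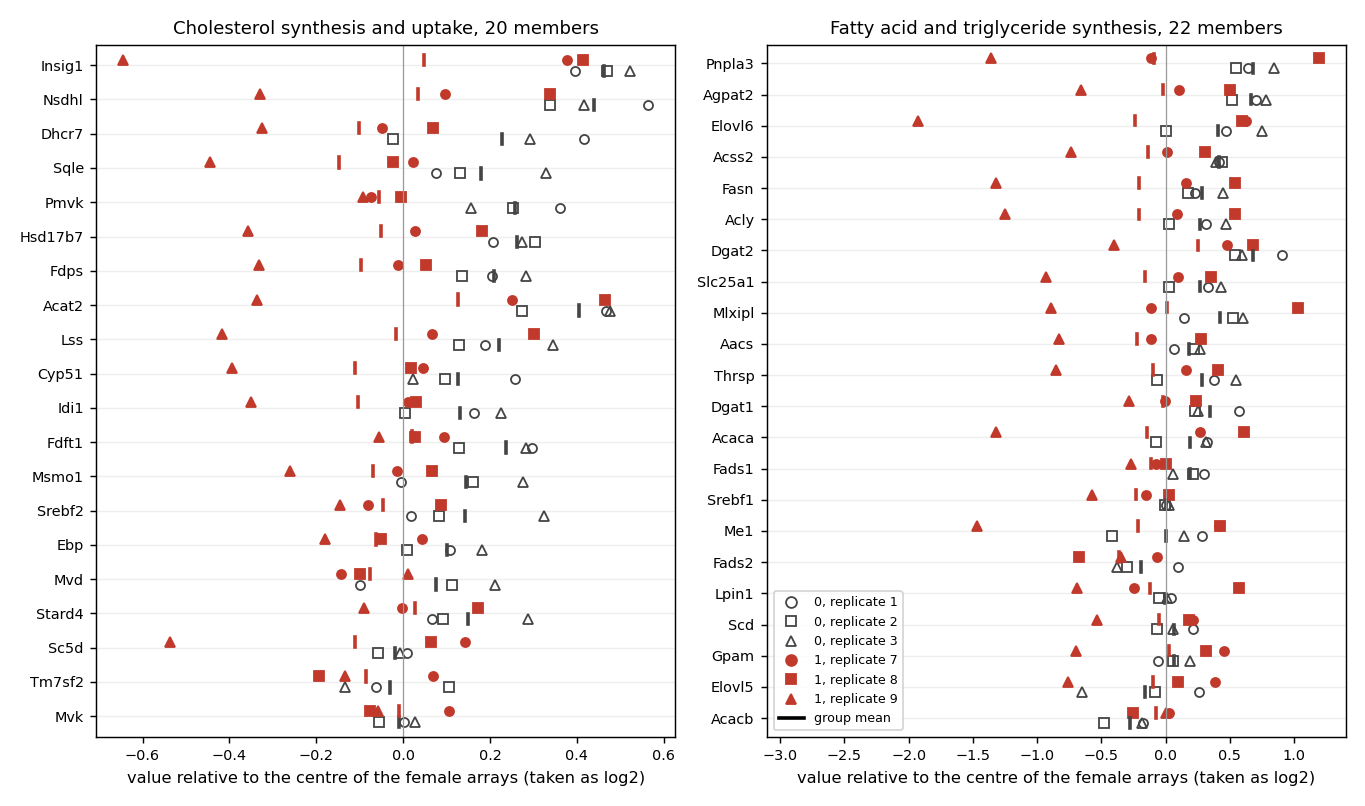
Values of 20 cholesterol genes and 22 fatty acid and triglyceride genes on the 6 female arrays, in log2 units relative to the centre of the female arrays; open symbols are controls, filled symbols are dose 1 and bars are group means. Filled triangles mark replicate 9, which reached -1.93 for Elovl6, while replicates 7 and 8 stayed near the controls for most fatty acid genes.

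Milk genes leaned higher. Of 17 measured, 14 were higher at 1, the median was 0.20, and 3 (17.6%) had all dosed arrays above all controls, against 2.46% of all genes. The list mean was -0.22, -0.56 and -0.09 in controls and 0.07, -0.08 and -0.09 at dose 1. The low control was replicate 2. The median was 0.01 without it and 0.13 without replicate 7. Wap carried the largest difference among genes that separated by array. Its values were -1.68, -1.85 and -1.15 in controls and -0.26, 1.16 and 0.06 at dose 1, so every dosed array was above every control. The difference was 1.88 ± 0.67 (SE; limma, unadjusted p = 0.0112, 95% interval 0.48 to 3.27), or 3.67-fold if the values are log2, and it lay between 1.45 and 2.17 as arrays were left out.

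The caseins did not separate. Csn2 had -0.30, -1.44 and 0.50 in controls and 0.74, -0.36 and -0.21 at dose 1, and Csn3, κ-casein, had -0.34, -0.70 and 0.05 against 0.46, -0.05 and 0.18. Their differences were 0.47 ± 0.77 and 0.53 ± 0.40, within the spread of the arrays. Csn1s1, an alpha-casein, gave 0.28 ± 0.20, and Lalba, α-lactalbumin, which completes the lactose synthase, gave 0.37 ± 0.27. Cel, a milk lipase, had -0.10, -0.33 and -0.12 against 0.39, 0.02 and -0.02, and separated with a difference of 0.31 ± 0.22. Elf5, the transcription factor of the alveolar lineage, had -0.31, -0.85 and -0.39 against 0.03, -0.30 and -0.24, which just separated, with a difference of 0.35 ± 0.46.

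Genes known as direct estrogen receptor targets had small differences in both directions. Of 23 measured, 17 were lower, the median was -0.06, and 0 lay above and 1 (Tff3) below the controls on all 3 arrays. The share below, 4.35%, was no larger than the 6.25% of all genes. After quantile normalization, and also after centring each array on its median, 1 lay above and 0 below. Pgr had -1.48, 0.17 and -0.95 in controls and -0.25, -0.17 and -0.46 at dose 1. Its difference of 0.46 ± 0.32 came with overlapping groups and was 0.07 without the 2 arrays that carried hepatocyte transcripts. Greb1, a growth regulator induced by estrogen, had -0.64, 1.04 and -0.56 against -0.56, 0.66 and -0.19, a difference of 0.02 ± 0.37. In both genes control replicate 2 was the highest of the 6 arrays. Areg had 0.11, -0.49 and -0.39 against -0.47, -1.75 and -0.56, a difference of -0.67 ± 0.44 in which replicate 8 was lowest. Esr1 differed by -0.16 ± 0.18, Prlr, the prolactin receptor, by -0.20 ± 0.26, Ccnd1, cyclin D1, by -0.26 ± 0.19, and Igf1 by -0.22 ± 0.19.

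The EGF family, through which estrogen signals reach dividing cells, had 6 members higher and 6 lower. Nrg4, a neuregulin made by fat, had 0.09, 0.21 and 0.36 in controls and -0.11, 0.01 and -0.01 at dose 1 (-0.26 ± 0.13). Btc and Erbb2 also lay below on all arrays, by -0.13 ± 0.11 and -0.19 ± 0.21, which makes 3 of 12 (25%) against 6.25% of all genes. Hbegf differed by 0.39 ± 0.26 and Egfr by 0.06 ± 0.14.

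For epithelial marker genes, the array means of the groups overlapped. The luminal list (24 genes) had a median of -0.08 and array means from -0.39 to -0.09 in controls and from -0.41 to -0.13 at dose 1. The basal and myoepithelial list (17 genes) had a median of 0.03, with 0 genes separated in either direction. Krt8, a luminal keratin, differed by -0.17 ± 0.32, Krt5, a basal keratin, by 0.12 ± 0.40, and Acta2, the smooth muscle actin of myoepithelium, had a difference close to 0 with an SE of 0.16. The 36 cell cycle genes had a median of -0.02. Mki67, the proliferation antigen Ki-67, differed by 0.05 ± 0.22, and 2 of the 36, Tk1 and Tyms, lay below on all dosed arrays, by -0.27 ± 0.11 and -0.34 ± 0.15. That share, 5.56%, is no larger than the 6.25% of all genes.

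Other cells of the fat pad gave small values. Macrophage genes were higher in 18 of 21 members, with a median of 0.17 and 3 (14.3%) above the controls on all arrays, against 2.46% of all genes. The list mean was -0.05, 0.06 and 0.00 in controls and 0.30, 0.22 and -0.01 at dose 1, so replicate 9 did not follow. The median was 0.27 without replicate 9, with 16 of 21 members (76.2%) separated upward against 8.16% of all genes, but 0.10 without replicate 7 and 0.11 without replicate 8. Mpeg1, a pore-forming macrophage protein, had -0.34, -0.13 and 0.00 against 0.56, 0.08 and 0.02 (0.37 ± 0.21). C1qb, a complement chain, had -0.07, 0.04 and -0.08 against 0.42, 0.39 and -0.04 (0.30 ± 0.14). Collagen and matrix genes were higher in 25 of 29 members with a median of 0.07 and 0 separated. The count depended on single arrays. Without control replicate 1 the median was 0.15 and 13 of 29 (44.8%) separated upward, against 7.76% of all genes, and without replicate 9 the median was 0.14 and 10 (34.5%) separated, against 8.16%. Col6a3, a chain of collagen VI, had the largest difference of the list, 0.43 ± 0.21, and Fn1, fibronectin, had 0.28 ± 0.10.

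Genes induced by glucocorticoids or FOXO factors had a median of 0.12, which was 0.32 without replicate 9 and 0.25 without control replicate 1, with Klf9 (0.32 ± 0.16) and Tsc22d3 (0.32 ± 0.16) above the controls on all arrays. Thrb, a thyroid hormone receptor, had 0.09, 0.16 and 0.10 in controls and -0.15, -0.08 and -0.28 at dose 1, a difference of -0.28 ± 0.11. Of 13 Schwann cell and nerve genes, 2 (15.4%) lay above the controls on all arrays, against 2.46% of all genes. Of 16 heat shock and unfolded protein genes, 3 (18.8%) lay below, against 6.25% of all genes, and 1 lay above. Skeletal muscle genes had a median of 1.20 with all 6 arrays, which was 0.25 without control replicate 1 and 0.35 without replicate 9. The muscle covariate was the mean of these same genes. The median of -0.22 with muscle and hepatocyte covariates was therefore bound to lie near 0 and says nothing about their change. Of 36 members 34 were higher, yet 0 separated by array, since controls reached 0.21 and dosed arrays reached down to -1.62. Myh7, the slow myosin heavy chain, had -3.85, -3.55 and -2.35 in controls and -2.73, 0.51 and 3.29 at dose 1. Hepatocyte genes were lower in 23 of 23 members with a median of -0.56, which was 0.22 without control replicate 1.

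Among probe sets with 1 gene, 368 had an unadjusted p under 0.05 and groups that did not overlap, 95 higher and 273 lower at 1. These were selected on the contrast itself, so their separation is a description. Wap had the largest difference upward. Dpep1, a dipeptidase of the cell surface, had 0.04, -1.26 and -0.19 in controls and 0.42, 0.45 and 0.41 at dose 1, a difference of 0.90 ± 0.26 that all 3 of its probe sets shared in sign. The dosed arrays lay close together while control replicate 2 was far below the rest, and the difference was 0.51 without control replicate 2 and 1.16 without control replicate 1. Nap1l3, a nucleosome assembly protein, had -0.82, -0.63 and -1.16 against 0.18, -0.24 and -0.44 (0.71 ± 0.21). Pcdh9, a protocadherin, had -0.47, -0.79 and -0.87 against 0.04, 0.11 and -0.37 (0.64 ± 0.19).

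The rest of the higher genes were led by different arrays. Me3, a mitochondrial malic enzyme, had -0.48, -0.43 and -0.61 against 0.16, -0.31 and 1.04, and Wnt16, a secreted Wnt ligand, had -0.22, -0.19 and 0.00 against 0.07, 0.07 and 1.18. Both were highest on replicate 9, the array with the most muscle transcripts, and with muscle and hepatocyte covariates their differences were 0.58 and 0.43 in place of 0.80 and 0.57. Without replicate 9 they were 0.43 and 0.20. Ryr3, a calcium release channel, was also highest there, with a difference of 0.55 ± 0.16. Cyp26b1, which degrades retinoic acid, had -0.12, -0.28 and -0.45 against 0.64, 0.23 and 0.01 (0.58 ± 0.19) and was highest on replicate 7. Sned1, a matrix protein, at 0.56 ± 0.19, and Esm1, an endothelial proteoglycan, at 0.54 ± 0.23, complete the 10.

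The 10 largest differences downward include Angptl8, a regulator of lipoprotein lipase, with 0.92, 0.73 and 1.05 in controls and 0.08, 0.53 and -0.89 at dose 1 (-0.995 ± 0.39), and G0s2, Adrb3, Agpat2 and Fcer1a, given above. Without replicate 9 the differences were -0.60 for Angptl8, -0.41 for G0s2, -0.36 for Agpat2 and -0.39 for Slc22a3. Nexmif, a gene best known from neurons, had -0.20, 1.09 and 0.01 against -0.40, -0.38 and -0.89. Control replicate 2 was high, and the difference of -0.86 ± 0.23 was -0.46 without it and -1.11 without control replicate 1. Ivl, involucrin of the cornified layer, had 0.17, 1.71 and 0.19 against 0.08, -0.06 and -0.05, and its high value was on control replicate 2. Its difference was -0.70 ± 0.26, and -0.19 without that array. Ivl belongs to the hair and stratified epithelium list, whose mean was 1.10 on control replicate 2 and 1.44 on replicate 7. A link between these values was not tested. Slc22a3, an organic cation transporter, differed by -0.67 ± 0.23, Rasd1, a Ras-like protein induced by dexamethasone, by -0.63 ± 0.20, and Jam2, a junction protein, by -0.58 ± 0.18 with 5 of 5 probe sets lower. Because the groups of these 20 genes do not overlap, leaving out an array could not turn their sign. Of all 140 genes named by rule, 28 turned sign in at least 1 alternative.

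**Figure D4:**
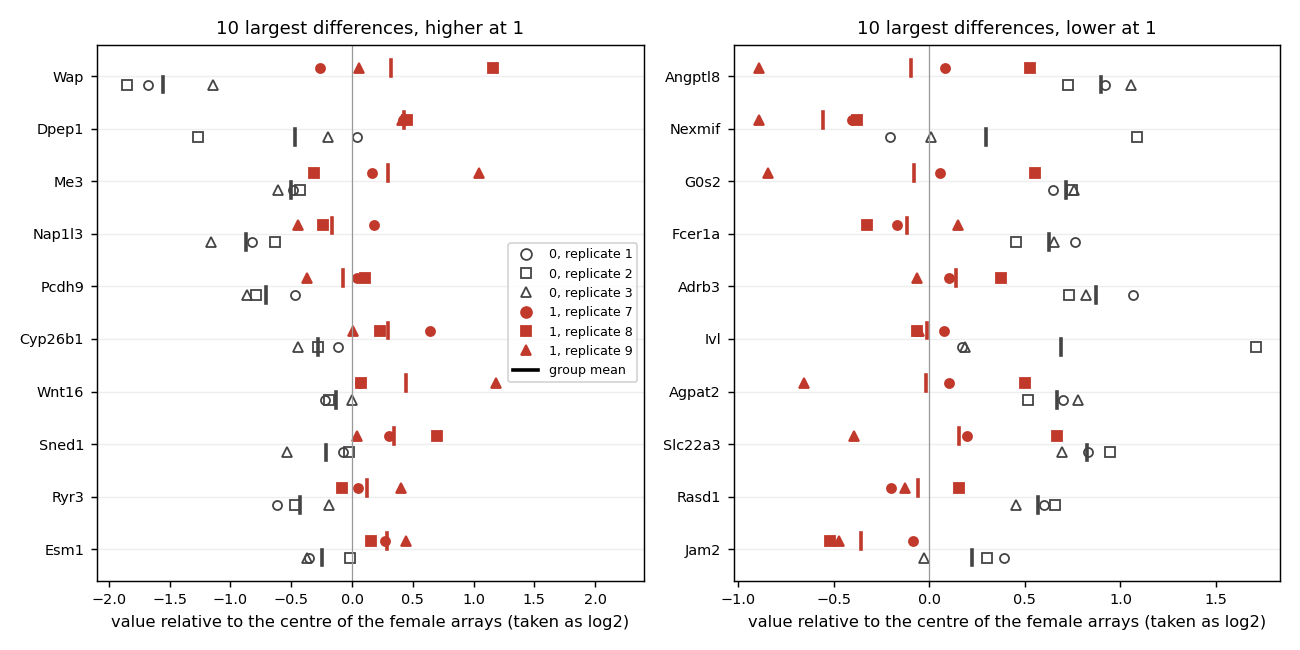
Values of the 10 genes with the largest difference upward and the 10 with the largest downward among those with an unadjusted p under 0.05 and no overlap, on the 6 female arrays in log2 units relative to their centre; open symbols are controls, filled symbols are dose 1 and bars are group means. Wap spans from -1.85 in a control to 1.16 at dose 1, and Angptl8, G0s2 and Agpat2 are lowest on replicate 9.

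To ask how the middle dose stood to the top dose, 10 was tested against 1 in females with the same arrays at 1. Of 31042 probe sets, 83 (0.267%) had an adjusted p under 0.05, 57 higher and 26 lower at 10, and 53 of them had 1 gene. The count was 3 with the 12 female arrays alone and 9 without replicate 8. The genes named here were chosen after their values were seen. Olah, a thioesterase that ends medium-chain fatty acid synthesis in milk, was higher at 10 than at 1 by 1.87 ± 0.38 (limma, adjusted p = 0.0462), while at 1 against 0 it differed by 0.34 ± 0.38. Slc34a2, a phosphate carrier, was higher at 10 by 1.92 ± 0.40, Ehf, an epithelial transcription factor, by 1.14 ± 0.22, and Stat5a, the mediator of prolactin signals, by 0.66 ± 0.12. At 1 against 0 these gave 0.19 ± 0.40, 0.16 ± 0.22 and -0.07 ± 0.12. Igfbp3 was lower at 10 than at 1 by -1.19 ± 0.24 and Adrb3 by -1.11 ± 0.20 (limma, adjusted p = 0.0298). Of these named genes, Adrb3 was the 1 that also separated at 1. For Wap the step from 1 to 10 was 2.42 ± 0.67 and did not pass (limma, adjusted p = 0.138).

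**Figure D5:**
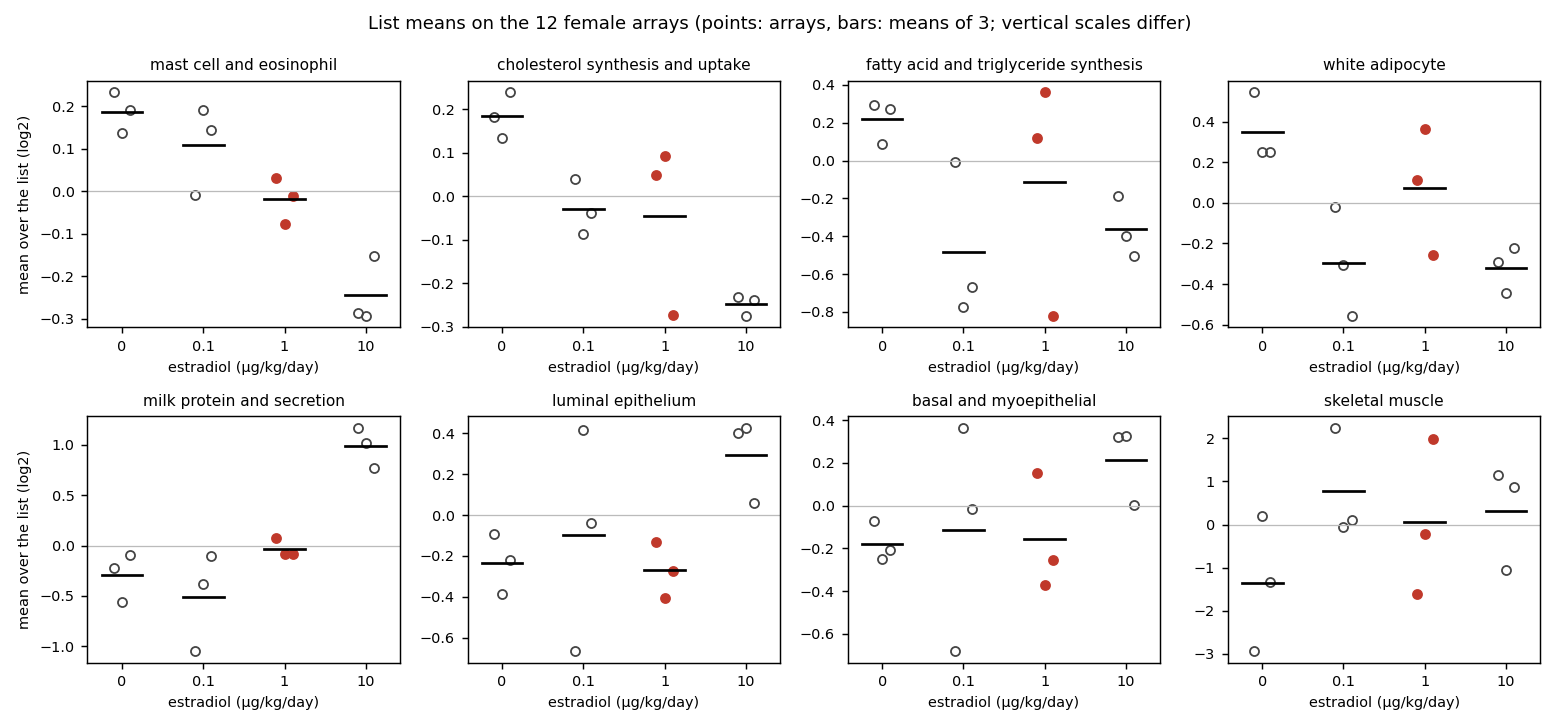
Mean of 8 gene lists on the 12 female arrays at 0, 0.1, 1 and 10 µg/kg/day, in log2 units; each point is an array, bars are means of 3, filled points are dose 1, and the vertical scales differ. At dose 1 the milk list lay at -0.09 to 0.07, below every array at 10 (0.77 to 1.17), and the mast cell list lay between the controls and the arrays at 10 (-0.29 to -0.15).

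Across list means, dose 1 took different positions from list to list. Milk genes at 10 had array means of 1.17, 1.02 and 0.77, all above those at 1. Luminal genes had 0.40, 0.43 and 0.06 at 10, again above every array at 1. Mast cell genes had -0.29, -0.29 and -0.15 at 10, below every array at 1. Fatty acid genes at 1 spanned more than the 3 arrays at 10, which lay between -0.50 and -0.19.

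Males at the same dose gave a contrast that could be tested as a difference of changes. The male change minus the female change passed for 15 of 31042 probe sets (0.0483%), 14 of them larger in males, and 7 of the 15 had 1 gene. Areg rose at 1 in males by 3.18 ± 0.44 and the difference of changes was 3.86 ± 0.63 (limma, adjusted p = 0.0307). Its male arrays were -2.88, -2.097 and -1.99 at 0 and 0.69, 0.71 and 1.19 at 1, with no overlap, while the female arrays overlapped as given above. Egr2, an early response transcription factor, rose in males by 1.85 ± 0.22 and differed by -0.21 ± 0.22 in females, a difference of 2.06 ± 0.30 (limma, adjusted p = 0.0237). The count of 15 ranged from 0 to 51 as single arrays were left out.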

How the data were processed

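Biotin-labelled RNA of whole rat mammary glands was measured on 24 Affymetrix arrays, 3 for each of 8 groups of sex and dose. The deposited table holds signed log values, taken here as log2 because the base is not given in the sources used here. The submitters' processing notes name GCOS, with no role or version. In the deposited values 14459 probe sets have a pair of arrays of equal and opposite value (tolerance 2e-06), 2 of them across the sexes, so the values were read as centred within each sex: levels, sex differences in level and detection could not be examined, and the precision is limited by the number of arrays.

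Groups came from the labels. limma 3.58.1 in R 4.3.3 (lmFit and eBayes, 8 group means) was fitted to 31042 probe sets with no filter on low values, with Benjamini-Hochberg adjustment across every probe set fitted. The fit was also run on simulated data with independent noise for each probe set and array. Shifts shared by many genes of an array were not simulated, so that run does not bear on them. Each gene was represented by the probe set with the largest SD over the 12 male arrays. Those arrays do not enter the female differences, but they enter the SE and p-values through the fit of 8 groups. Named genes were the 10 largest differences in each direction at an unadjusted p under 0.05 without overlap, up to 4 members of each of 31 lists by p, and 7 fixed genes; others are said to be chosen after their values were seen or are listed beside their group. The comparison and the lists were chosen with earlier results of these data known. Alternatives left out arrays, rescaled them, weighted them, or added covariates.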

Additional observations from a re-analysis of the deposited data

Results flagged for a closer look

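The change at 1 µg/kg/day was compared between the sexes by an interaction term in limma, and 15 probe sets passed (0.0483% of those tested); 7 of them carry 1 gene. The male change minus the female change was -0.95 for Slc9a9, a sodium-proton exchanger, which was lower in males by -0.66 and differed by 0.29 in females. It was 1.12 for Spon1, which encodes a matrix protein, 1.41 and 1.53 for the 2 probe sets of Serpinb9, a granzyme inhibitor, and 1.99 for Pcdh10, a protocadherin. Egr2 gave 2.06 and Areg gave 3.86. Each of these probe sets passed in 1 to 4 of the 12 fits that left out 1 array.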

How the results depend on the processing

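At 1 against 0 no probe set passed an adjusted p under 0.05 by limma in any alternative run, and 10 met an unadjusted p under 0.05 with a difference of at least 1. The 83 called at 10 against 1 became 3 with the 12 female arrays alone, 29 without the 2 arrays that carried hepatocyte transcripts, 166 with array weights, 157 after quantile normalization, 47 among probe sets with 1 gene, and 9 to 153 as single arrays were left out. The 15 called for the difference between sexes became 6 without those 2 arrays, 83 with array weights, 5 with muscle and hepatocyte covariates, 0 with the beta-actin covariate, 6 among probe sets with 1 gene, 285 at the unadjusted threshold with a difference of at least 1, and 0 to 51 as single arrays were left out. The median of the milk list ran from 0.0087 to 0.30 and that of the mast cell list from -0.25 to -0.19 as single arrays were left out. The causes were not tested. Fits on the 6 arrays alone were not run for 10 against 1 or for the difference between sexes, nor the 12 female arrays alone for the latter.

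No paired analysis was possible because the arrays at 0 and at 1 share no replicate number. Males and females of a dose do share numbers, and their deviations correlated from -0.48 to 0.59 over 12 pairs. Deviations within so small a group are tied to each other. These correlations therefore cannot show whether arrays with a shared number were paired. With the replicate block, chosen after seeing the data, 27 probe sets were called for the difference between sexes, against 15 in the main fit.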
